A study of Mus musculus with 6 samples.

Results

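Interleukin 4 (Il4) and interleukin 13 (Il13), the receptors that bind them, the transcription factor Gata3 and 3 secreted products that these cytokines induce (Retnla, Chil3 and Ccl24) were followed in mouse colon tissue carrying tumors. The genes were chosen by symbol, with every gene probe that carries the symbol in the scanner output or through its transcript accession. These 10 genes, of 37325 gene names on the array, are read by 12 probes.

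Gene expression was measured on 6 one-color Agilent arrays, 3 of mice given RG@M-γ-CD and 3 of mice given PBS, and the labels call these 2 groups test and control. RG@M-γ-CD is regorafenib, an oral inhibitor of several kinases, carried in particles of mannose-modified γ-cyclodextrin, and was given by mouth at 30 µg/g of particles, equivalent to 10 µg/g of regorafenib. All 6 mice were male C57BL/6, purchased at 6 to 8 weeks of age in the study's methods. Tumor growth and treatment came after that age, so the tissue is of older mice. All carried colitis-associated tumors raised by 1 injection of AOM (azoxymethane) at 10 µg/g followed by 2% DSS (dextran sulfate sodium) in the drinking water. No array therefore shows a healthy colon. Treatment lasted 21 days and was followed by 14 days of observation, so the tissue was taken after dosing had ended. The carrier alone and free regorafenib are not among these arrays, so the drug, the carrier and their combination cannot be told apart.

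IL-4 and IL-13 are cytokines of type 2 immunity, released mainly by helper T cells, innate lymphoid cells, mast cells and basophils. IL-4 signals through IL-4Rα paired with the common γ chain or with IL-13Rα1, while IL-13 uses IL-4Rα with IL-13Rα1, and both switch on the transcription factor STAT6. In the gut this pathway is known for driving goblet cell mucus, the expulsion of worms and the alternatively activated state of macrophages, which tumors can also hold.

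The probe sequences below are shown because the results for both cytokines turn on what these oligonucleotides detected. The third is of a receptor whose 2 probes differed in brightness and in the sign of the change. They are printed 5′ to 3′ as the scanner output gives them. The Il4 probe lies at chr11:53426076-53426135, the Il13 probe at chr11:53445564-53445623 and the dimmer Il4ra probe, A_55_P1966189, at chr7:132712550-132712609 (mm9, as in the files).
Il4 probe: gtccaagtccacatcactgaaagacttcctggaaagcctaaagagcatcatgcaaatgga
Il13 probe: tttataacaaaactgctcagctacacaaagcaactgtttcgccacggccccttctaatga
Il4ra probe A_55_P1966189: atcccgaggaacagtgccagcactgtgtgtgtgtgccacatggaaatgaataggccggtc

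STAT6 is known to prefer the letters TTCNNNNGAA, while other STAT factors prefer TTCNNNGAA. Both patterns read the same on either strand, so a search of 1 strand covers both. In the RefSeq promoter windows (GRCm38.p6, 250 bases before to 50 after each gene start), TTCNNNNGAA was found in 6.95% of 32851 entries and in 2 of the 10 entries of these genes, for Il4 and Retnla. TTCNNNGAA was found in 8.3% of all entries and in 2 of the 10, for Chil3 and for another start of Il4, and no window of these genes held both patterns. The 10 entries cover 9 of the genes, and Ccl24 has none. The 250 bases upstream of Il4 (chr11:53618666-53618915, minus strand), of Retnla (chr16:48842359-48842608, plus strand) and of Chil3 (chr3:106167565-106167814, minus strand) are shown because these genes start and end the pathway, with the matching letters in capitals. A match is a description of the letters and shows no binding.
Il4 upstream: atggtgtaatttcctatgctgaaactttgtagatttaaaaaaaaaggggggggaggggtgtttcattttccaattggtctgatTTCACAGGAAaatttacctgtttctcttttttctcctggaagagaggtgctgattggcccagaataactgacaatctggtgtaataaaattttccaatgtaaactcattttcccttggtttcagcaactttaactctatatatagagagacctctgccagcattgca
Retnla upstream: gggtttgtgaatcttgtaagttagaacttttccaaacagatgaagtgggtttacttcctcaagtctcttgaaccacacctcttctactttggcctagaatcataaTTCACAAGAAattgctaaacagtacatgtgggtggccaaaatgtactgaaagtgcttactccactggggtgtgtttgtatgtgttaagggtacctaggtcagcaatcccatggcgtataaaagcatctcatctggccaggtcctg
Chil3 upstream: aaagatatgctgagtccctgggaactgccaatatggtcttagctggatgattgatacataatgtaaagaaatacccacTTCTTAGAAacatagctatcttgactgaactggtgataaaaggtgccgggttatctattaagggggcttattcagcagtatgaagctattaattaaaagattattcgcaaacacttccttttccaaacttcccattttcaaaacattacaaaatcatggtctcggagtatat

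Before the results, 2 limits of the arrays apply to every gene. The labels assign arrays 5, 6 and 7 to RG@M-γ-CD and arrays 8, 10 and 11 to PBS, whereas a clustered heat map of the study sets arrays 6, 7 and 8 apart from arrays 5, 10 and 11 without naming their treatment. The labels were followed, and values for arrays 6, 7 and 8 minus arrays 5, 10 and 11 are given beside them, with neither side named as treated. All arrays lie on 1 slide and were read in 1 scan, with the 3 RG@M-γ-CD arrays and PBS 1 in row 1 of the slide and PBS 2 and PBS 3 in row 2. Between 49.64% and 55.15% of gene probes were well above background on an array, which limits what dim genes can show.

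None of the 8 genes that could be tested passed the adjusted threshold of 0.05 (limma with Benjamini-Hochberg adjustment over 19090 genes), and 0% of all genes did. The adjusted p was 1.0 for each of the 8. At an unadjusted p below 0.05, 0 of the 8 passed, against 2.19% of all genes tested, and the methods' t-test, an unpaired two-sided test, also gave 0 of the 8. In 0 of the 8 did the groups fail to overlap, against 4.57% of all genes. Of the 8, 6 were lower in RG@M-γ-CD, against 52.8% of all genes. The median log2 change was -0.49 over the 8 genes and -0.012 over all genes tested. Among the 6 is Retnla, which entered the test through PBS alone, where it was higher, so it adds no support to this count. Under a stricter filter that asked for detection on each of the 6 arrays, Retnla dropped out and 5 of 7 were lower. The median was then -0.44, against -0.011 over all genes. Without RG@M-γ-CD 1 the count of these genes past the adjusted threshold stayed at 0 of 8, against 1.04% of all genes, and for arrays 6, 7 and 8 minus arrays 5, 10 and 11 it was 0 of 7, against 0.0259%. With 3 arrays a group, an exact two-sided permutation test of 1 gene cannot go below p = 0.10.

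Levels are given below as log2 of the background-corrected intensity minus the 75th percentile of the array, so that 0 is the level of that percentile. Since each probe has its own brightness, levels of different genes are not compared. Because the RNA came from whole tissue, fewer cells of a type and less RNA per cell cannot be told apart.

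Il4 and Il13, the ligands, did not rise well above background on any of the 6 arrays (the scanner software's mark for a detected spot). The level of Il4 was -6.72, -6.40 and -6.50 on RG@M-γ-CD arrays 1 to 3 and -6.29, -6.22 and -5.55 on PBS arrays 1 to 3. For Il13 it was -6.80, -6.36 and -6.48 in RG@M-γ-CD and -6.70, -4.87 and -5.12 in PBS. All of these lie under the lowest signal marked well above background on the same array, which ranged from -4.62 to -3.98. The Il4 values of the groups did not overlap and the Il13 values did, but below background the order of values has no reading and no fold change is given. For both cytokines the data therefore hold an upper bound on the signal and no level.

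**Figure D1:**
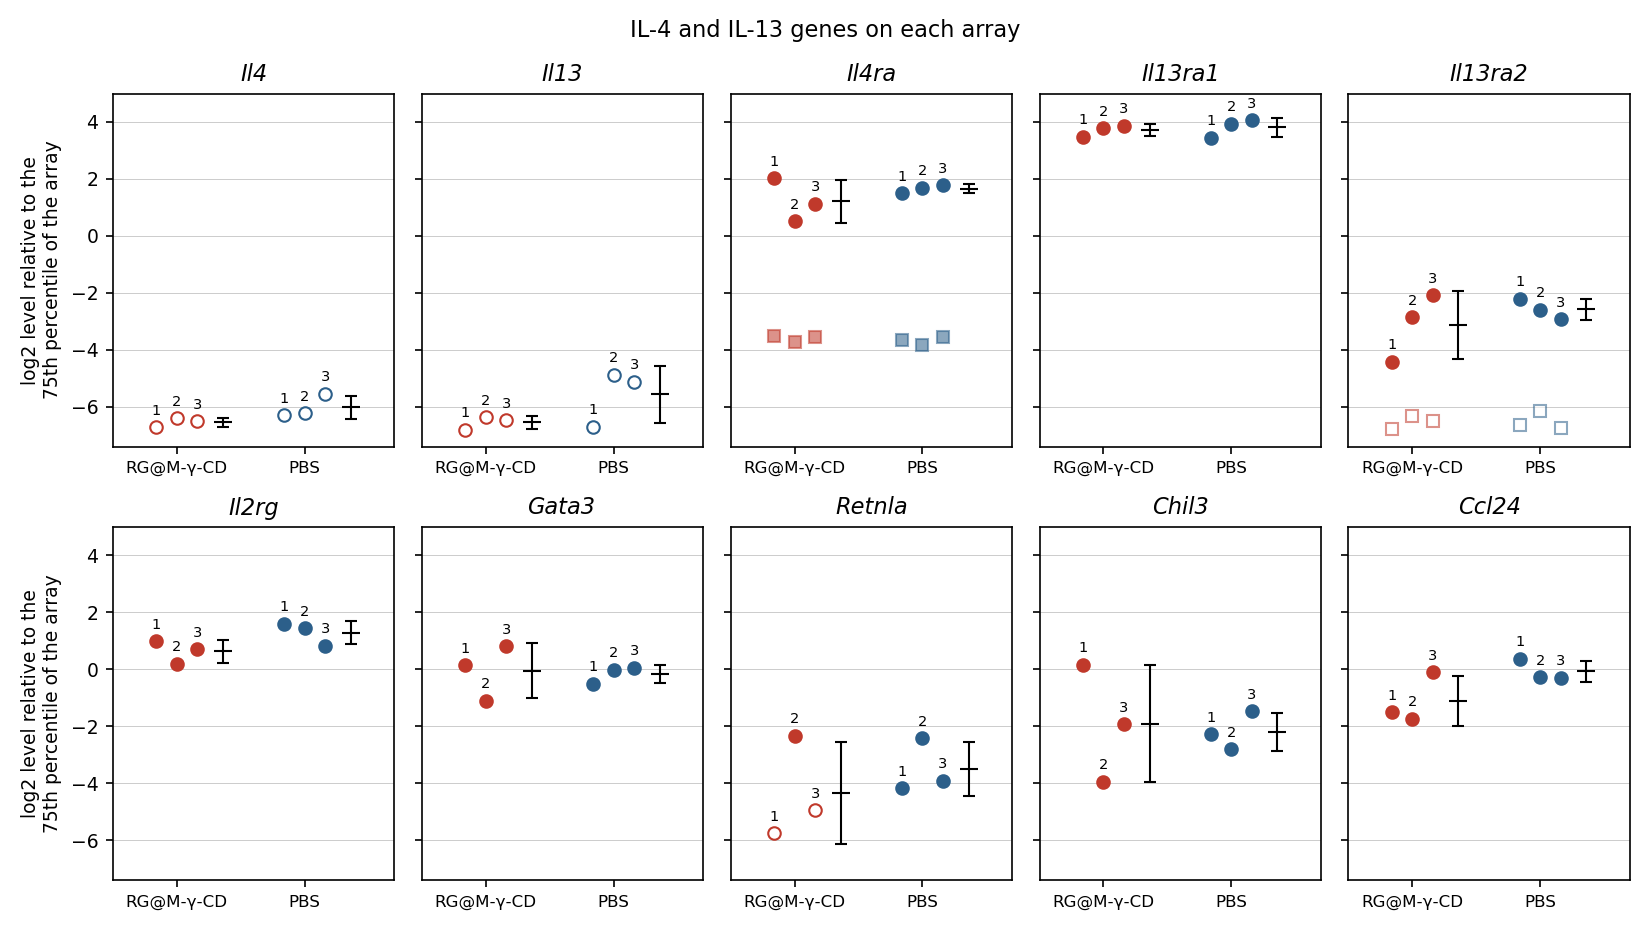
Level of each of the 10 genes on each array (y axis, log2 relative to the 75th percentile of the array; x axis, group), with the replicate number above each point and the mean ± SD of the 3 arrays beside it in black. Open symbols mark values not well above background, squares the second probe of Il4ra and of Il13ra2, and the cytokines Il4 and Il13 are open on all 6 arrays.

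Il4ra, the receptor chain shared by both cytokines, was detected on all 6 arrays. Its brighter probe (A_51_P464478, chr7:132721137-132721196, mm9) gave 2.02, 0.52 and 1.12 in RG@M-γ-CD and 1.49, 1.70 and 1.78 in PBS. RG@M-γ-CD 1 was the highest array and RG@M-γ-CD 2 the lowest, so the treated mice enclosed the narrow range of the controls. The log2 change was -0.44 (SE 0.37, 95% interval -1.34 to 0.46, limma, n = 3 and 3). The spread of the RG@M-γ-CD arrays set its size, since the change was -0.84 (unadjusted p = 0.0130, adjusted p = 0.209) without RG@M-γ-CD 1 and -0.088 without RG@M-γ-CD 2.

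The second Il4ra probe, whose sequence is printed above, lies nearer the transcript's 5′ end, at base 466 against base 3242 for the brighter one. It read -3.53, -3.74 and -3.55 in RG@M-γ-CD and -3.65, -3.83 and -3.56 in PBS. These values lie not far above the lowest signals marked well above background, which ranged from -4.62 to -3.98. They spanned 0.31 over the 6 arrays, against 1.50 for the brighter probe, and the log2 change of the second probe was 0.079 (SE 0.16). How far a change could show on so dim a probe was not tested. The 2 probes therefore differed in the sign of the change, which for neither was larger than the spread between arrays. For arrays 6, 7 and 8 minus arrays 5, 10 and 11, the brighter probe gave -0.79 (SE 0.26, unadjusted p = 0.0214, adjusted p = 0.297), with 16.5% of all genes at an unadjusted p below 0.05 in that grouping.

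Il13ra1, which pairs with IL-4Rα to form the receptor for both cytokines, varied least of these 8 genes on the probes tested. Its level was 3.48, 3.78 and 3.87 in RG@M-γ-CD and 3.44, 3.94 and 4.05 in PBS. The groups overlapped almost fully, with replicate 1 the lowest in each. The log2 change was -0.10 (SE 0.22, 95% interval -0.63 to 0.43), which bounds any difference more closely than for the other genes. Within row 1 of the slide the mean of the RG@M-γ-CD arrays lay 0.27 above PBS 1.

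Il13ra2, which binds IL-13 tightly and is known as a decoy receptor, was dim and uneven in the treated mice. It read -4.42, -2.85 and -2.08 in RG@M-γ-CD and -2.21, -2.59 and -2.93 in PBS. RG@M-γ-CD 1 was the lowest array and RG@M-γ-CD 3 the highest, so the controls again lay inside the treated range. The log2 change of -0.54 (SE 0.58, 95% interval -1.94 to 0.86) became 0.11 without RG@M-γ-CD 1, and it was 0.93 (adjusted p = 0.337) for arrays 6, 7 and 8 minus arrays 5, 10 and 11. A second probe, A_55_P2929601, stayed below that mark on all 6 arrays.

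Il2rg encodes the common γ chain, which IL-4 shares with IL-2, IL-7 and other cytokines and which lymphocytes express widely. Its level was 0.98, 0.20 and 0.71 in RG@M-γ-CD and 1.61, 1.44 and 0.82 in PBS. PBS 1 and PBS 2 lay above all treated arrays, while PBS 3 lay below RG@M-γ-CD 1, so the groups overlapped. Its change was -0.66 on the log2 scale (SE 0.29, 95% interval -1.36 to 0.047, unadjusted p = 0.0627), a level 1.58-fold higher in PBS. The unadjusted p was 0.0340 without RG@M-γ-CD 1 and 0.0237 without PBS 3, with adjusted p = 0.328 and 1.0, and the change was -0.24 for arrays 6, 7 and 8 minus arrays 5, 10 and 11.

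T cell markers are given beside Il2rg because T cells express it. Of the 7 genes of the T cell list 6 were tested, all 6 were lower in RG@M-γ-CD, against 52.8% of all genes, and the median log2 change was -0.58. None passed the adjusted threshold in limma, and 1 of the 6 had an unadjusted p below 0.05, against 2.19% of all genes. The summed level of the tested markers, on a linear scale where 1 is the 75th percentile, was 6.28, 3.65 and 4.14 in RG@M-γ-CD and 6.74, 7.64 and 5.85 in PBS. RG@M-γ-CD 2 and RG@M-γ-CD 3 were the lowest arrays both for this sum and for Il2rg, and the part of T cell content in the Il2rg values was not tested.

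Gata3, the transcription factor that directs type 2 helper T cells and innate lymphoid cells, did not separate the groups. It read 0.15, -1.09 and 0.81 in RG@M-γ-CD and -0.51, -0.007 and 0.05 in PBS. RG@M-γ-CD 2 was the lowest array and RG@M-γ-CD 3 the highest. The change was 0.11 (SE 0.48, 95% interval -1.04 to 1.27) and ran from -0.31 without RG@M-γ-CD 3 to 0.64 without RG@M-γ-CD 2.

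**Figure D2:**
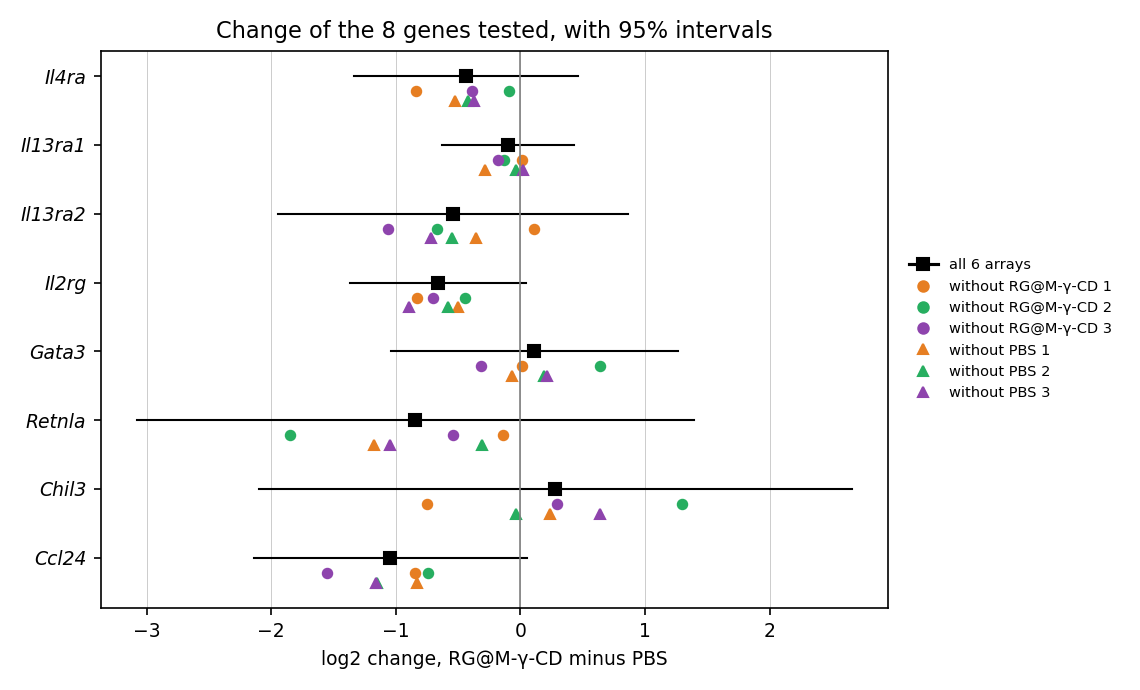
Log2 change (x axis, RG@M-γ-CD minus PBS) of the 8 genes tested, with squares for all 6 arrays, bars for 95% intervals, and circles or triangles for the change with 1 array left out. Every interval holds 0, and Il4ra, Il2rg, Retnla and Ccl24 stay below 0 whichever array is left out, where Retnla without RG@M-γ-CD 2 is set against treated values near background.

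Retnla, a small secreted protein that marks alternatively activated macrophages, was near background in the treated mice. It read -5.75, -2.33 and -4.95 in RG@M-γ-CD and -4.16, -2.42 and -3.91 in PBS, and it was well above background on RG@M-γ-CD 2 alone of the treated arrays and on all 3 PBS arrays. RG@M-γ-CD 2 nonetheless gave the highest value of all, so the groups overlapped. Retnla entered the test through PBS alone, the group where its mean was higher. The log2 change was -0.84 (SE 0.93, 95% interval -3.08 to 1.39), where the dim treated values make its size uncertain. It was -0.14 without RG@M-γ-CD 1 and -0.31 without PBS 2, while without RG@M-γ-CD 2 no treated array was well above background, so no size is given for that case. The change was -0.19 with normexp background correction, which raises dim signals.

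Chil3, a chitinase-like protein made by alternatively activated macrophages and other myeloid cells, had the widest range of those of the 10 genes that were detected on all 6 arrays. Its level was 0.16, -3.94 and -1.93 in RG@M-γ-CD and -2.28, -2.81 and -1.47 in PBS. The highest and the lowest array were both treated, RG@M-γ-CD 1 and RG@M-γ-CD 2, and they differed by 4.10. On the log2 scale the change was 0.28 (SE 0.99, 95% interval -2.10 to 2.66), 1.30 without RG@M-γ-CD 2 and -0.75 without RG@M-γ-CD 1. Chil3 has a near-identical neighbor, Chil4, so its signal can come from both transcripts, although on no array did the probe designed for Chil4 rise well above background.

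Chil3 and Retnla stood at opposite ends on RG@M-γ-CD 2, while both are known as products of alternatively activated macrophages. RG@M-γ-CD 2 was the lowest array for Chil3 and the highest for Retnla. RG@M-γ-CD 1 was the highest array for Chil3. Retnla was not well above background on RG@M-γ-CD 1 or RG@M-γ-CD 3, so the order of its values there has no reading. Over the 6 arrays, which share 1 slide and fall into 2 groups, Pearson r was -0.88 as a description. This r rests in part on those 2 values of Retnla. Of the 9 genes of the macrophage list 8 were tested, 7 of them lower in RG@M-γ-CD, against 52.8% of all genes. The median log2 change was -0.50, with 0 past the adjusted threshold and 0 at an unadjusted p below 0.05. Their summed level was 25.6, 12.0 and 11.4 in RG@M-γ-CD and 23.3, 18.7 and 21.7 in PBS. This sum was highest on RG@M-γ-CD 1, as Chil3 was, but lowest on RG@M-γ-CD 3, where Chil3 was not. The part of macrophage content in these values was not tested.

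Neutrophils can also hold Chil3 transcripts. The summed level of the 5 neutrophil markers, all tested, was 98.9, 79.9 and 46.7 in RG@M-γ-CD and 103, 59.1 and 86.7 in PBS, with a median log2 change of -1.75. Of the 5, 4 were lower, and 0 had an unadjusted p below 0.05, against 2.19% of all genes. By the sum PBS 1 was the highest array and RG@M-γ-CD 3 the lowest, unlike Chil3. This sum is led by the brightest markers, and the mean log2 level is given for this list alone. The mean log2 level of the same 5 markers was 2.60, -0.15 and 0.40 in RG@M-γ-CD and 2.49, 1.70 and 2.58 in PBS, so by this measure RG@M-γ-CD 1 was the highest array and RG@M-γ-CD 2 the lowest, as for Chil3. The part of neutrophil content in the Chil3 values was not tested. Of the 19089 other genes tested, those most like Chil3 over the 6 arrays were AA465934, Hdac2, Dync1i2, Brsk1 and Fra10ac1, with Pearson r from 0.9919 to 0.9939. They were picked for the highest r over only 6 arrays, so these r values are a description and no test of a link. Their levels moved less, from 3.13 to 3.38 for Fra10ac1 and from -1.44 to -0.41 for Brsk1, against -3.94 to 0.16 for Chil3.

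Ccl24, the chemokine eotaxin-2, draws eosinophils through the receptor CCR3 and is induced by IL-4 and IL-13 in macrophages and epithelium. Its level was -1.50, -1.73 and -0.10 in RG@M-γ-CD and 0.37, -0.27 and -0.29 in PBS. RG@M-γ-CD 1 and RG@M-γ-CD 2 lay below all other arrays, while RG@M-γ-CD 3 lay above PBS 2 and PBS 3. The log2 change was -1.05 (SE 0.46, 95% interval -2.14 to 0.049, unadjusted p = 0.0583), a level 2.07-fold higher in PBS, and this was the change of largest size among the 8 genes. With 1 array left out the change ranged from -1.55 (unadjusted p = 0.00191) without RG@M-γ-CD 3 to -0.74 (unadjusted p = 0.161) without RG@M-γ-CD 2. Neither value passed the adjusted threshold. Within row 1 of the slide, where PBS 1 is the only PBS array, the change was -1.48. For arrays 6, 7 and 8 minus arrays 5, 10 and 11 it was 0.20.

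Eosinophils, the cells that Ccl24 attracts, gave little signal. Of 6 eosinophil markers 3 were tested and 3 defining ones, Epx, Prg2 and Ccr3, stayed near background on all 6 arrays. All 3 tested were lower in RG@M-γ-CD, 2 of them at an unadjusted p below 0.05, against 1.33% of all genes lower at that threshold, and 0 past the adjusted one. Their summed level was 0.478, 0.308 and 0.316 in RG@M-γ-CD and 0.434, 0.652 and 0.809 in PBS. On PBS 1, where Ccl24 was highest, the markers lay below those of RG@M-γ-CD 1, and their part in the Ccl24 values was not tested.

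The mixture of tissue differed between arrays of the same group. Smooth muscle markers summed to 43.1, 290 and 362 in RG@M-γ-CD against 79.6 to 104 in PBS, and goblet cell markers to 396, 1290 and 1040 against 687 to 1450. RG@M-γ-CD 1 was thus the lowest array for both lists, as it was for Il13ra2. Retnla also read lowest on RG@M-γ-CD 1, where it was not well above background. RG@M-γ-CD 2 gave the lowest value of Il4ra, Il2rg, Gata3, Chil3 and Ccl24, and the highest sum of adipocyte markers, 13.5 against 3.57 to 7.20 on the others, where 3 of 6 were tested and Plin1 stayed near background throughout. Colon epithelium markers summed to 681 to 938 in RG@M-γ-CD and 596 to 936 in PBS, squamous epithelium markers (4 of 5 tested) to 7.47 to 20.1 and 16.1 to 22.6, and mast cell markers (6 of 7 tested) to 5.66 to 10.9 and 6.86 to 14.1. The part of these cell types in the values of the 10 genes was not tested.

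**Figure D3:**
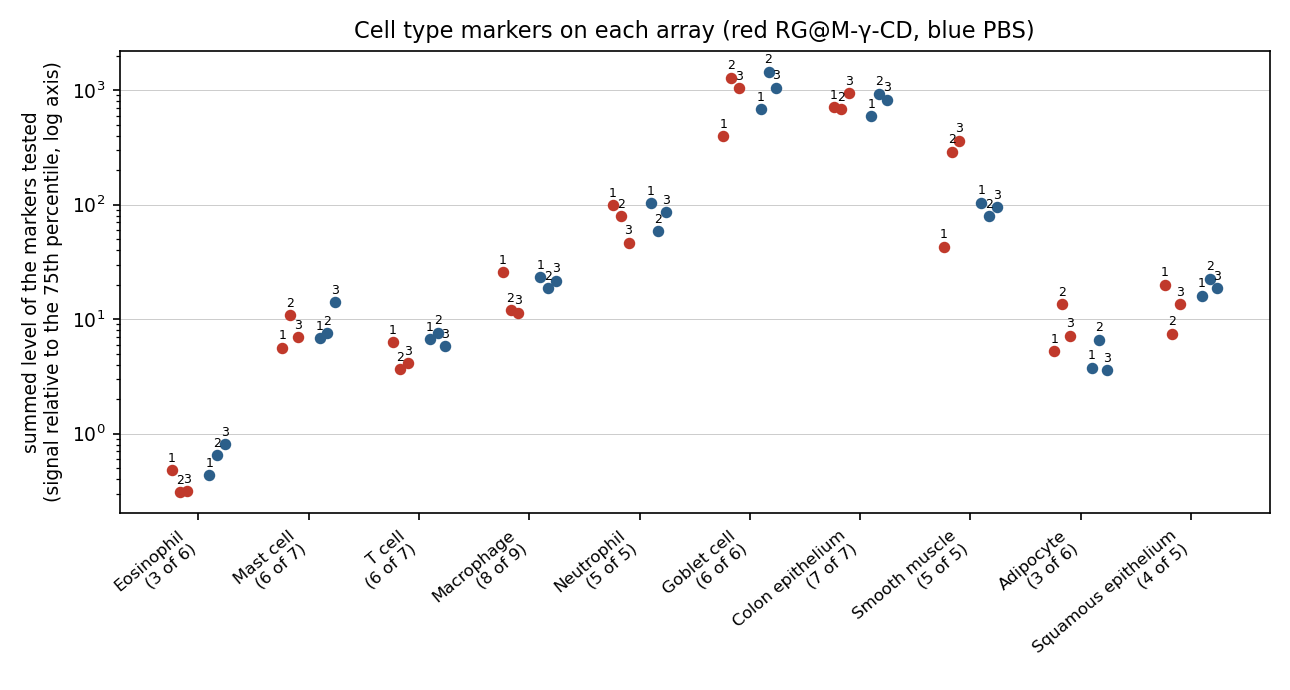
Summed level of the tested markers of 10 cell type lists on each array (y axis, linear signal relative to the 75th percentile, drawn on a log axis; x axis, list with the number tested), with the replicate number above each point. Smooth muscle markers spread from 43.1 to 362 among the RG@M-γ-CD arrays, and eosinophil markers lie below 1 on all 6.

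A further 53 genes of the pathway were read, from the signals that release type 2 cytokines to the targets of STAT6. All 53 were on the array and 40 were tested. Of the 40, 25 were lower in RG@M-γ-CD and 15 higher, against 52.8% of all genes lower. The median log2 change was -0.16, against -0.012 over all genes. None passed the adjusted threshold, in limma or by the methods' t-test, which gave 3 of the 40 at an unadjusted p of 0.05, against 381 of all 19090 genes. In limma 4 of the 40 had an unadjusted p below 0.05, all lower, against 1.33% of all genes lower at that threshold. Of these 4, Pdcd1lg2 entered the test through PBS alone, the group where it was higher. It therefore adds no support to this count or to the count of groups without overlap below. With only probes well above background on all 6 arrays, which leaves Pdcd1lg2 out, 4 pathway genes had an unadjusted p below 0.05. That stood against 2.01% of all genes, in either direction. The groups did not overlap in 6 of the 40, which were these 4, Bcl6 (lower) and Maf (higher), against 4.57% of all genes.

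These 4 genes act at different points. Pdcd1lg2, the checkpoint ligand PD-L2 that IL-4 induces on macrophages, was well above background on all PBS arrays but on RG@M-γ-CD 1 alone of the treated ones. It read -3.95, -4.95 and -4.33 in RG@M-γ-CD and -3.38, -3.56 and -3.57 in PBS, and its fitted change of -0.90 (unadjusted p = 0.0140) rests on treated values mostly near background. Ccl17, a chemokine that draws type 2 helper T cells through CCR4, had a log2 change of -0.90 (unadjusted p = 0.0259). Socs1, an inhibitor of Janus kinases that closes a feedback loop, had a log2 change of -0.83 (unadjusted p = 0.0265), and Nfil3, a transcription factor of innate lymphoid cells, one of -0.48 (unadjusted p = 0.0357). Their adjusted p was 1.0 in each case, and without RG@M-γ-CD 1 the count of pathway genes at this threshold was 10, with 12.5% of all genes there.

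Upstream of the cytokines, 4 of 6 genes were tested and none had an unadjusted p below 0.05. Il33, an alarm signal released by damaged epithelium and stroma, had a log2 change of -0.75 (unadjusted p = 0.229). Il33 read -0.57 on RG@M-γ-CD 2 against 1.28 to 1.75 on the other arrays. For Il1rl1, its receptor ST2, the change was -1.74 (unadjusted p = 0.184) on the brightest probe. A second Il1rl1 probe detected on all 6 arrays gave -0.97 (SE 0.58). The brightest probe read 2.17, -2.16 and 2.24 in RG@M-γ-CD and 2.04, 2.47 and 2.97 in PBS, so RG@M-γ-CD 2 alone lay apart. Il17rb, the receptor for IL-25, had a log2 change of 0.34 (unadjusted p = 0.251), while Il25 and Tslp stayed near background on all 6 arrays.

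Of the other type 2 cytokines, 0 of 5 could be tested. Il5, Il9, Il31 and Il3, like Il4 and Il13, stayed near background on all 6 arrays, while Csf2 was above it on RG@M-γ-CD 1 alone. All 11 signal transducers and feedback genes were detected, 8 lower and 3 higher. Stat6 itself read 1.31, 1.06 and 1.36 in RG@M-γ-CD and 1.18, 1.20 and 1.28 in PBS, a log2 change of 0.022 (SE 0.15). The log2 change was -0.49 (unadjusted p = 0.166) for Jak3, the kinase that binds the common γ chain, 0.32 (unadjusted p = 0.242) for Socs2, another feedback inhibitor, and, for Irs2, an adapter that IL-4 engages, 0.12 (unadjusted p = 0.646).

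The 6 transcription factors of type 2 cells were all tested, with 3 higher and 3 lower. Beside Nfil3, the log2 change was -0.61 for Irf4 (unadjusted p = 0.286) and -0.41 for Bcl6 (unadjusted p = 0.0517), a repressor that opposes Gata3 in T cells. It was 0.53 for Junb (unadjusted p = 0.167) and 0.37 for Maf (unadjusted p = 0.130), both of which activate the Il4 promoter in helper T cells. Single arrays lay apart for Irf4, at -1.686 on PBS 1 against -3.802 to -3.315 on the others. For Junb it was RG@M-γ-CD 2, at 6.95 against 5.55 to 5.85 on the others.

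Of 13 macrophage targets 11 were tested, 5 higher and 6 lower. Arg1, the arginase of alternatively activated macrophages, read 2.36, -0.72 and 0.85 in RG@M-γ-CD and 1.41, 1.92 and 2.35 in PBS, a change of -1.07 (unadjusted p = 0.198). As with Chil3, RG@M-γ-CD 1 was the highest array and RG@M-γ-CD 2 the lowest. Alox15, a lipoxygenase that IL-4 and IL-13 induce strongly, had a log2 change of 0.40 (unadjusted p = 0.730) and Pparg, a nuclear receptor of lipid metabolism, of 0.21 (unadjusted p = 0.402).

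Among 5 chemokine targets 4 were tested. Beside Ccl17, Ccl2, which draws monocytes, had a log2 change of -0.29 (unadjusted p = 0.397) and Ccl11, the eotaxin that shares CCR3 with Ccl24, of 0.082 (unadjusted p = 0.796). Ccl22, the other ligand of CCR4, stayed near background on all 6 arrays.

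Among 7 epithelial and stromal targets 4 were tested, 2 higher and 2 lower, and none had an unadjusted p below 0.05. Retnlb, the goblet cell protein that IL-13 induces against worms, read -0.88, 1.51 and -0.10 in RG@M-γ-CD and 0.38, 0.72 and 3.45 in PBS, a change of -1.34 (unadjusted p = 0.207), with PBS 3 the highest array. Clca1, a goblet cell protein, had a log2 change of -0.52 (unadjusted p = 0.573), Postn, a matrix protein of fibroblasts, of 0.46 (unadjusted p = 0.450) and Vcam1, an adhesion molecule of vessel walls, of 0.009 (unadjusted p = 0.977).

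**Figure D4:**
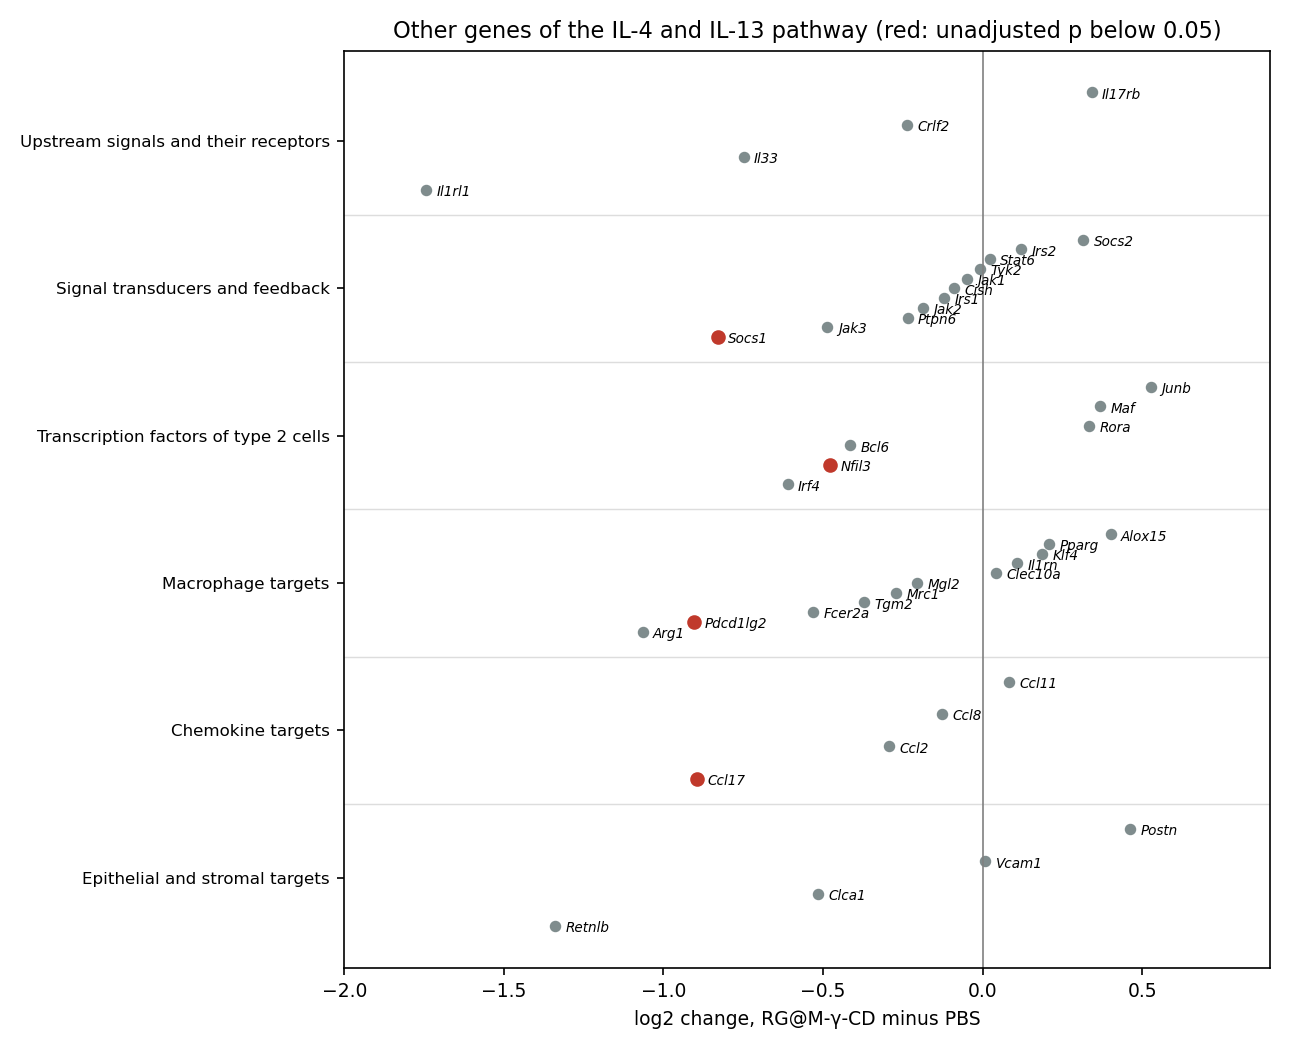
Log2 change (x axis, RG@M-γ-CD minus PBS) of the 40 pathway genes tested, by sub-list (y axis, genes ordered by change within each). The 4 genes in red, Pdcd1lg2, Ccl17, Socs1 and Nfil3, had an unadjusted p below 0.05 and lie below 0, and no gene passed the adjusted threshold. Pdcd1lg2 entered the test through PBS alone, the group where it was higher.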

How the data were processed

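Tumor-bearing colon tissue of 6 mice was measured on 1 Agilent array each (design of the SurePrint G3 mouse series, mm9 positions in the file headers). The authors deposited the intensity of each spot as Agilent Feature Extraction 10.7.1.1 wrote it, after background correction and detrending and with no scaling between arrays. The authors also deposited a table of log2 values per probe, which the methods tie to Gene Spring 13.1, and whose columns share 1 distribution (median 4.83); it served as an alternative. Each of its columns correlated with its own array at 0.999 or more, and its normalization and centring are not given in the sources used here.

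Intensities were read in R 4.3.3 (data.table, version 1.17.8). Control spots and outlier spots were left out, spots of a probe were averaged as log2 values, and the 75th percentile of the 56605 gene probes was subtracted on each array. A probe counted as well above background on an array if a share of 0.5 or more of its kept spots bore the scanner's mark. Symbols came from RefSeq by transcript accession for 32994 gene probes and from the files for the other 23611. Only probes that met this mark throughout RG@M-γ-CD, throughout PBS or in both entered the test, and the brightest of them stood for its gene. Changes were fitted in limma 3.58.1 (lmFit, eBayes) and Benjamini-Hochberg adjustment. All p-values are from limma fits across all genes unless the methods' t-test is named. Scripts were tested on simulated data.

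Groups came from the labels. The mice are separate animals, and p-values measure their spread and that of the arrays. The 10 genes, the pathway list of 53 and the 10 cell type lists were chosen with earlier results of these data known. The text names all 10 genes, pathway genes at an unadjusted p below 0.05 or with the 2 largest rises and 2 largest falls of a sub-list, and the 5 genes most like the gene of widest range; Stat6, Bcl6, Il25, Tslp, Chil4, Ccl22, Csf2, Il5, Il9, Il31, Il3, Epx, Prg2, Ccr3 and Plin1 were added after their values were seen. Alternatives were quantile normalization, normexp, the deposited table, other filters and probe rules, outlier spots kept, the replicate number or slide row as a block, the methods' t-test, the other array grouping, and each array left out. Probe positions are mm9 and promoter windows GRCm38.p6, and neither was converted.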

Additional observations from a re-analysis of the deposited data

How the results depend on the processing

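In no setting tried did any of the 10 genes pass the adjusted threshold, and the smallest adjusted p was 0.209, for Il4ra without RG@M-γ-CD replicate 1. Of the values recomputed for the 8 changes, 130 kept their direction and their side of the threshold and 13 turned direction, none of them past the threshold on either side. These counts include arrays 6, 7 and 8 minus arrays 5, 10 and 11. Neither side is named as treated there, so the order of subtraction sets the sign and direction has no reading. The log2 change in that grouping was 0.93 for Il13ra2, -0.33 for Gata3, -1.34 for Chil3 and 0.20 for Ccl24. It was -0.79 for Il4ra, -0.13 for Il13ra1 and -0.24 for Il2rg. There 5 of all genes passed the adjusted threshold, the median of all genes was -0.116, and Retnla could not be tested. With the slide row as a block Il13ra1 turned to 0.27, and Il4ra was 0.079 on its second probe. With 1 array left out, the change ranged from -0.28 to 0.023 for Il13ra1, from -1.06 to 0.11 for Il13ra2, from -0.31 to 0.64 for Gata3 and from -0.75 to 1.30 for Chil3, turning direction in 2, 1, 2 and 2 of the 6 fits. At an unadjusted p below 0.05 there were 0 of the 8 genes as reported, against 2.19% of all genes. There was 1 with normexp (Il2rg), against 1.99%, and 1 in the other array grouping (Il4ra), against 16.5%. With 1 array left out there were 0 to 2, where the 2 arose without RG@M-γ-CD replicate 1, against 12.5%. The 1 without RG@M-γ-CD replicate 2 was Retnla, with no treated array left well above background. The pathway genes at that threshold numbered 1 to 10 with 1 array left out, and all genes past the adjusted threshold 0 to 202, the higher count without RG@M-γ-CD replicate 1 in each case. The median log2 change of the 8 genes, -0.49 as reported, was -0.17 with normexp, against -0.001 over all genes. With the slide row as a block it was -0.226, against 0.097. The cause of these differences was not tested.

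The methods' t-test at its own threshold (fold of 2 and p of 0.05) gave 0 of the 8 genes, 0 of the 40 pathway genes and 45 of all genes, and 0 after Benjamini-Hochberg adjustment. Replicates 1 to 3 of the groups share a number only: deviations of same-numbered arrays correlated at -0.25, -0.233 and 0.136. With the replicate block 0 of the 8 genes and 2 pathway genes had an unadjusted p below 0.05, with 464 of all genes there against 419 without the block. Detection limits the cytokines, since neither Il4 nor Il13 was well above background on any array, and 3 arrays a group leave intervals over 1 log2 unit wide for each of the 8 changes.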
